A study of Mus musculus with 22 samples.

Results

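Among 13 B cell lymphomas of Eμ-Myc mice, 5 carried transcripts of Igll1 and 8 did not, and these 5 Igll1-positive lymphomas are described here against the 8 Igll1-negative ones. Igll1 encodes λ5, the constant-like part of the surrogate light chain. The positive lymphomas were chosen by their measured Igll1 signal: the brighter Igll1 probe set, by its average on the 22 arrays of the series, had to exceed a log2 intensity of 4. The split thus comes from the same arrays, so every comparison below describes which genes go with Igll1 among these lymphomas. All other genes were then compared between the sets.

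The lymphomas arose in mice carrying the Eμ-Myc transgene, in which an immunoglobulin heavy chain enhancer drives Myc in the B lineage. Each lymphoma came from a different mouse and was hybridised to 1 Affymetrix MOE430A array. Beside them stand 5 arrays of premalignant Eμ-Myc transgenic B cells and 4 arrays of wild type B cells. All are on the C57Bl/6 background, and the labels give an age of 4-6 weeks for every group, the lymphomas included. Cells were taken from spleen or bone marrow with beads against B220 or IgM, 2 surface proteins that different stages of the B lineage carry. The titles of the wild type arrays name their cells B220+. Beyond that, the labels do not tie a tissue or a bead to single arrays, so neither can be set against the split. The lymphomas were B lineage cells by Cd79a, a subunit of the B cell receptor, at 10.75 to 11.93 on the log2 scale in the Igll1-positive and 10.78 to 12.08 in the Igll1-negative set. The probe set for Pax5, the B lineage commitment factor, stayed under log2 4 on all 22 arrays, wild type included, and gave no check.

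In the B lineage, heavy chain genes are rearranged first, by the RAG recombinase, in pro-B cells. The new heavy chain pairs with the surrogate light chain, built from λ5 and a VpreB protein, to form the pre-B cell receptor. That receptor drives a burst of division together with interleukin-7. The surrogate light chain is then shut off, RAG acts again on the light chain loci, and a conventional light chain replaces it on the immature B cell. In mice Igll1 and Vpreb1 are transcribed in pro-B and large pre-B cells and are widely used to mark those stages.

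Igll1 and Vpreb1 are neighbours on mouse chromosome 16, with 0 genes between them in the RefSeq annotation, and their promoters are shown because Igll1 defines the positive lymphomas and Vpreb1 encodes its partner. The sequences are RefSeq's for build GRCm38.p6, from 250 bases before to 50 bases after the gene start, on the minus strand, at chr16:16863936-16864235 for Igll1 and chr16:16869206-16869505 for Vpreb1. Capitals mark matches, on either strand, to the E boxes CAGGTG and CAGCTG, letters bound by E2A proteins, and to TCCC followed by GGGA with any 3 bases between.
Igll1: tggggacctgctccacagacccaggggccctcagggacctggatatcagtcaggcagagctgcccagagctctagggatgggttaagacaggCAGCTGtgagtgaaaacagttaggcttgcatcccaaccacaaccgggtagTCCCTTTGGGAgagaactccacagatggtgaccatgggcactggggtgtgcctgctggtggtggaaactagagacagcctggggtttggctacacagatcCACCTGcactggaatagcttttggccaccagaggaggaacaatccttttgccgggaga
Vpreb1: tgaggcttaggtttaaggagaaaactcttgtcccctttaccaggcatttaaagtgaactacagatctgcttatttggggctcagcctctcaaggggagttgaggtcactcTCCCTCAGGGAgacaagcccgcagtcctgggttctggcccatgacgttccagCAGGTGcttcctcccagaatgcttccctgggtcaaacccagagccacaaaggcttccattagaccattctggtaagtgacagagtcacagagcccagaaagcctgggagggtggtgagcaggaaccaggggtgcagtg
The consensus of EBF1, a factor known to act on both genes, was searched as TCCC and GGGA with any 2 bases between, and was found in neither window, and in 0.904% of 32851 mouse promoters of this length. Both windows did hold these flanks 3 bases apart, as TCCCTTTGGGA 108 bases before the start of Igll1 and as TCCCTCAGGGA 140 bases before the start of Vpreb1. That spacing was looked for only after both sequences had been read, and 0.831% of promoters hold it. CAGGTG or its complement stood 8 bases before the start of Igll1 and 88 bases before that of Vpreb1, and stands in 20.2% of promoters. CAGCTG was found 158 bases before the start of Igll1 and not in the Vpreb1 window, against 16.3% of promoters. These are matches of letters, with no binding measured.

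Igll1 reached 12.22, 5.26, 7.21, 8.60 and 4.85 on the log2 intensity scale in Igll1-positive lymphomas 1, 3, 7, 10 and 12, numbered as the labels number the lymphomas. The Igll1-negative lymphomas lay between 3.65 and 3.84, with a median of 3.71. Premalignant B cells gave 3.54 to 3.96 and wild type B cells 3.65 to 3.80. The positive lymphomas thus span a wide range, and lymphoma 1 stands far above lymphomas 3 and 12. The lymphoma just inside the threshold was 12, at 4.85, and the one just outside it was 4, at 3.84. Another probe set for Igll1 stayed near the array floor on every array, at 2.42 in lymphoma 1.

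Vpreb1, the partner of λ5, had log2 values of 10.62, 4.55, 6.36, 8.67 and 2.50 in the same 5 lymphomas. In the Igll1-negative lymphomas it lay between 2.32 and 2.49, in premalignant cells between 2.43 and 2.64, and in wild type cells between 2.44 and 2.57. Both genes of the surrogate light chain were therefore above log2 4 in 4 of the 5 Igll1-positive lymphomas, and both genes ranked these lymphomas alike, in the order 1, 10, 7, 3 and 12. Lymphoma 12 held Igll1 signal alone, so that the name surrogate light chain positive does not hold for it, and the set is called Igll1-positive here. A probe set shared by Vpreb2 and Vpreb1 could not be assigned to either. Vpreb3, which despite its name is not part of the surrogate light chain and is transcribed through later B cell stages too, was high in both sets. It averaged 8.63 ± 0.47 in Igll1-positive and 8.75 ± 0.48 in Igll1-negative lymphomas (SD, n = 5 and 8), a difference of -0.12 (limma adjusted p = 0.896), whose sign turned under some settings. Vpreb3 averaged 8.82 in premalignant and 7.83 in wild type B cells.

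**Figure D1:**
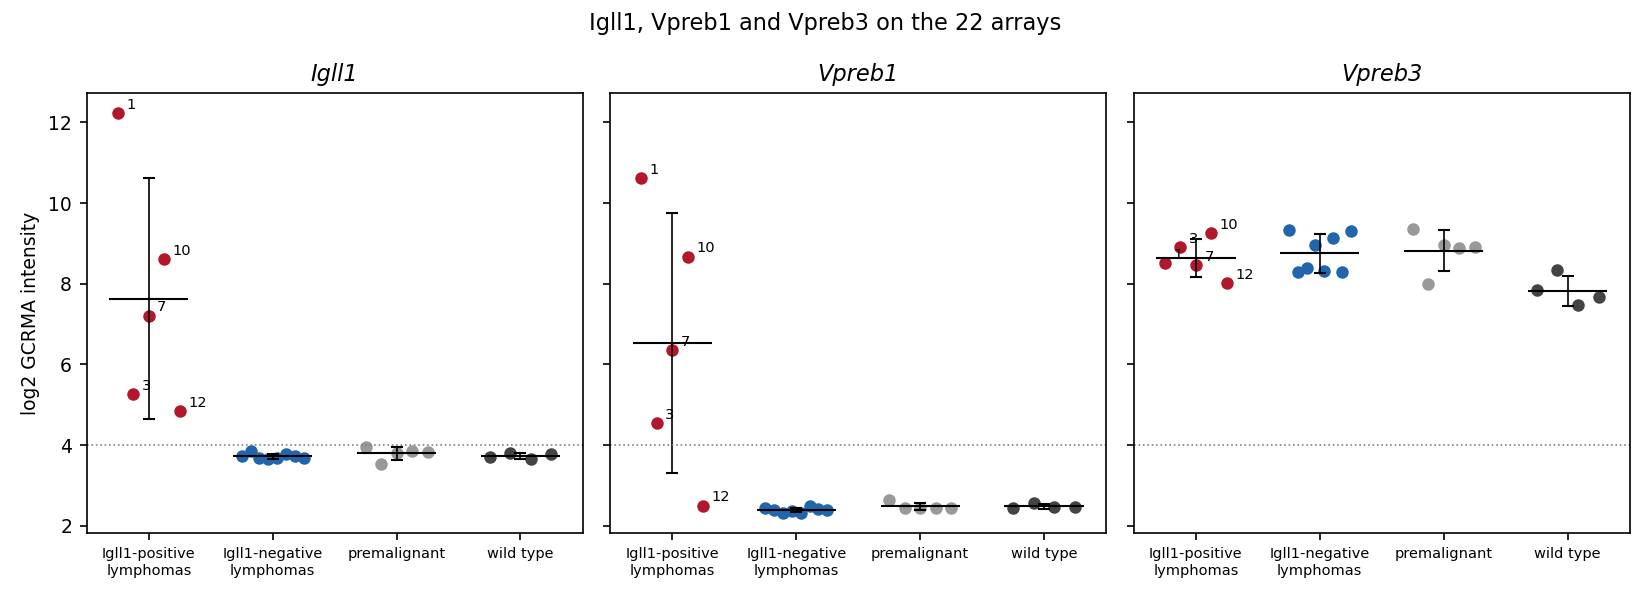
Log2 intensity of Igll1, Vpreb1 and Vpreb3 (vertical axes) on each of the 22 arrays, by group; dots are arrays, bars the mean and SD, the dotted line log2 4, and numbers name the Igll1-positive lymphomas. Igll1 runs from 4.85 to 12.22 in the positive lymphomas, Vpreb1 reaches 10.62 but is 2.50 in lymphoma 12, and Vpreb3 overlaps between both sets of lymphomas.

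Across all other genes, no difference between Igll1-positive and Igll1-negative lymphomas passed the test. Of 6065 genes, limma called 0 higher and 0 lower at a Benjamini-Hochberg adjusted p under 0.05 (0% called), and the lowest adjusted p was 0.0536. At an unadjusted p under 0.05, 321 genes were higher (5.29%) and 272 lower (4.48%), 593 in all (9.78%). The median difference over all genes was -0.015 on the log2 scale, and 47.4% of genes had a difference above 0. In 22 genes (0.363%) the sets did not overlap at all, 11 higher and 11 lower (0.181% each). The count of calls depended on single choices. It was 23 without lymphoma 6 of the negative set, 26 in 1 fit over all 22 arrays, 148 higher and 74 lower with array weights, and 23 when lymphomas were split by Vpreb1 in place of Igll1. The values below are therefore given as levels, with no gene said to change.

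**Figure D2:**
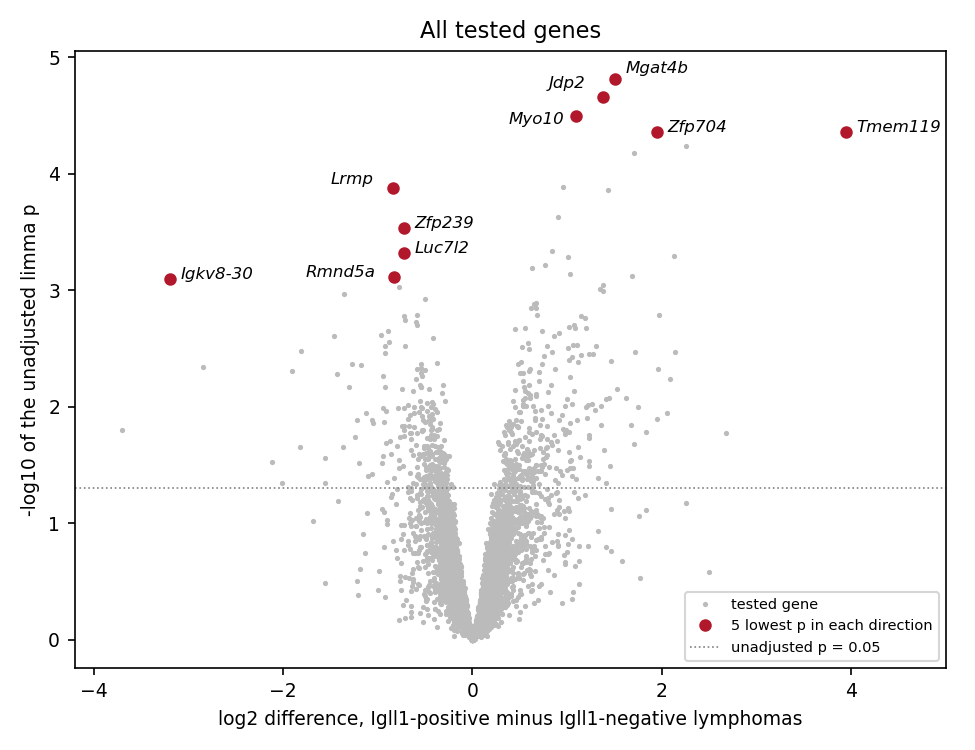
Difference in log2 intensity, Igll1-positive minus Igll1-negative lymphomas (horizontal axis), against -log10 of the unadjusted limma p (vertical axis) for 6065 genes; the 5 genes with the lowest p in each direction are labelled. Zfp704, Tmem119, Mgat4b, Jdp2 and Myo10 lie highest, at differences of 1.09 to 3.94, and none of the genes passed the adjusted threshold.

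The 5 genes with the lowest p on the higher side were close to the array floor in most Igll1-negative lymphomas and in the premalignant and wild type B cells. All shared an adjusted p of 0.0536, and each passed in 6 to 8 of 26 alternative settings. They entered the test through the Igll1-positive lymphomas, since only 0 to 2 of 8 negative ones were above log2 4 for any of them, so the filter favoured a difference and these p values lend no support. With no filter on dim probe sets the adjusted p was 0.144 for Mgat4b, Jdp2 and Myo10 and 0.214 for Tmem119 and Zfp704. Tmem119, which encodes a membrane protein best known as a marker of microglia, showed the widest gap. It had log2 values of 6.73, 6.08, 6.60, 6.92 and 1.66 in Igll1-positive lymphomas 1, 3, 7, 10 and 12, and 1.64 to 1.69 in the Igll1-negative lymphomas. Premalignant and wild type B cells both averaged 1.70. Tmem119 was thus present in exactly the 4 lymphomas in which Vpreb1 was above log2 4, and at the floor in lymphoma 12. The fitted difference was 3.94 (SE 0.68), at least 3.03-fold higher, taking a set mean under log2 4 as 4. Without lymphoma 12, the 1 positive lymphoma at the floor, the difference was 4.93, given as a description. The summed macrophage markers described below were lowest in lymphoma 12 among the positive lymphomas, at 3242.1, and reached 5155.3 in negative lymphoma 6, where Tmem119 was 1.64. The part of other cells in the Tmem119 values was not tested.

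Zfp704, a zinc finger protein, had log2 values of 5.33, 5.31, 5.14, 5.71 and 5.52 in the Igll1-positive lymphomas. In the Igll1-negative set 7 lymphomas lay between 3.01 and 3.77, and lymphoma 6 stood among the positive ones at 5.32. The difference was 1.95 (SE 0.34), at least 2.64-fold higher, and 2.22 without lymphoma 6, the 1 negative lymphoma above log2 4. Zfp704 did not follow the amount of Igll1, since lymphoma 12 was as high as lymphoma 1.

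Mgat4b, an enzyme that branches N-linked glycans, averaged 5.28 ± 0.56 in Igll1-positive and 3.77 ± 0.35 in Igll1-negative lymphomas (SD, n = 5 and 8). The sets did not overlap, the lowest positive lymphoma being 12 at 4.53 and the highest negative one 11 at 4.33. The difference was 1.50 (SE 0.23), at least 2.42-fold. Jdp2, a Jun dimerisation protein that represses AP-1 targets, had 5.95, 4.59, 4.64, 4.64 and 4.80 in the Igll1-positive lymphomas, against 3.16 to 3.92 in the negative ones. Lymphoma 1 stood apart from the other positive lymphomas, and without it the difference was 1.12 in place of 1.38. Myo10, a myosin of filopodia, averaged 4.70 ± 0.31 in Igll1-positive and 3.61 ± 0.33 in Igll1-negative lymphomas (SD, n = 5 and 8), again without overlap. Its difference was 1.09 (SE 0.18), at least 1.63-fold.

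The 5 genes with the lowest p on the lower side mostly differed by less. Lrmp, a membrane protein of the endoplasmic reticulum in lymphocytes, averaged 8.88 ± 0.19 in Igll1-positive and 9.72 ± 0.32 in Igll1-negative lymphomas (SD, n = 5 and 8). The sets did not overlap, and the difference was -0.84 (SE 0.16, adjusted p = 0.0831), or 1.79-fold lower. The splicing factor Luc7l2 and the ubiquitin ligase subunit Rmnd5a did not overlap either. Luc7l2 averaged 7.95 in the positive and 8.67 in the negative lymphomas (adjusted p = 0.197), and Rmnd5a 6.20 and 7.03 (adjusted p = 0.223). The zinc finger gene Zfp239 lay under log2 4 in all 5 positive lymphomas and above it in 4 of 8 negative ones (adjusted p = 0.147), through which alone it entered the test. The remaining gene of this group was the kappa light chain variable gene Igkv8-30, described with the immunoglobulin genes.

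Besides Mgat4b, Jdp2 and Myo10, the 8 other genes without overlap on the higher side were Slc39a6, Ninj1, Svil, Eci2, Cars, Sash1, Galnt1 and Cd300c2, named after their values were seen. Their differences ran from 0.23 for Cd300c2 to 1.03 for Eci2, with adjusted p of 0.129 for Slc39a6, a zinc transporter, and above that for the rest. On the lower side Hmgn1, a nucleosome-binding protein, had the largest difference of means, at -1.30 (adjusted p = 0.359). Its value was 8.22 in Igll1-positive lymphoma 1, against 10.64 to 11.11 in the other positive lymphomas and 11.17 to 12.36 in the negative ones. Lymphoma 1 thus sets the size of the difference. Another Hmgn1 probe set did overlap, with 11.17 in positive lymphoma 12 and 10.89 in negative lymphoma 6.

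**Figure D3:**
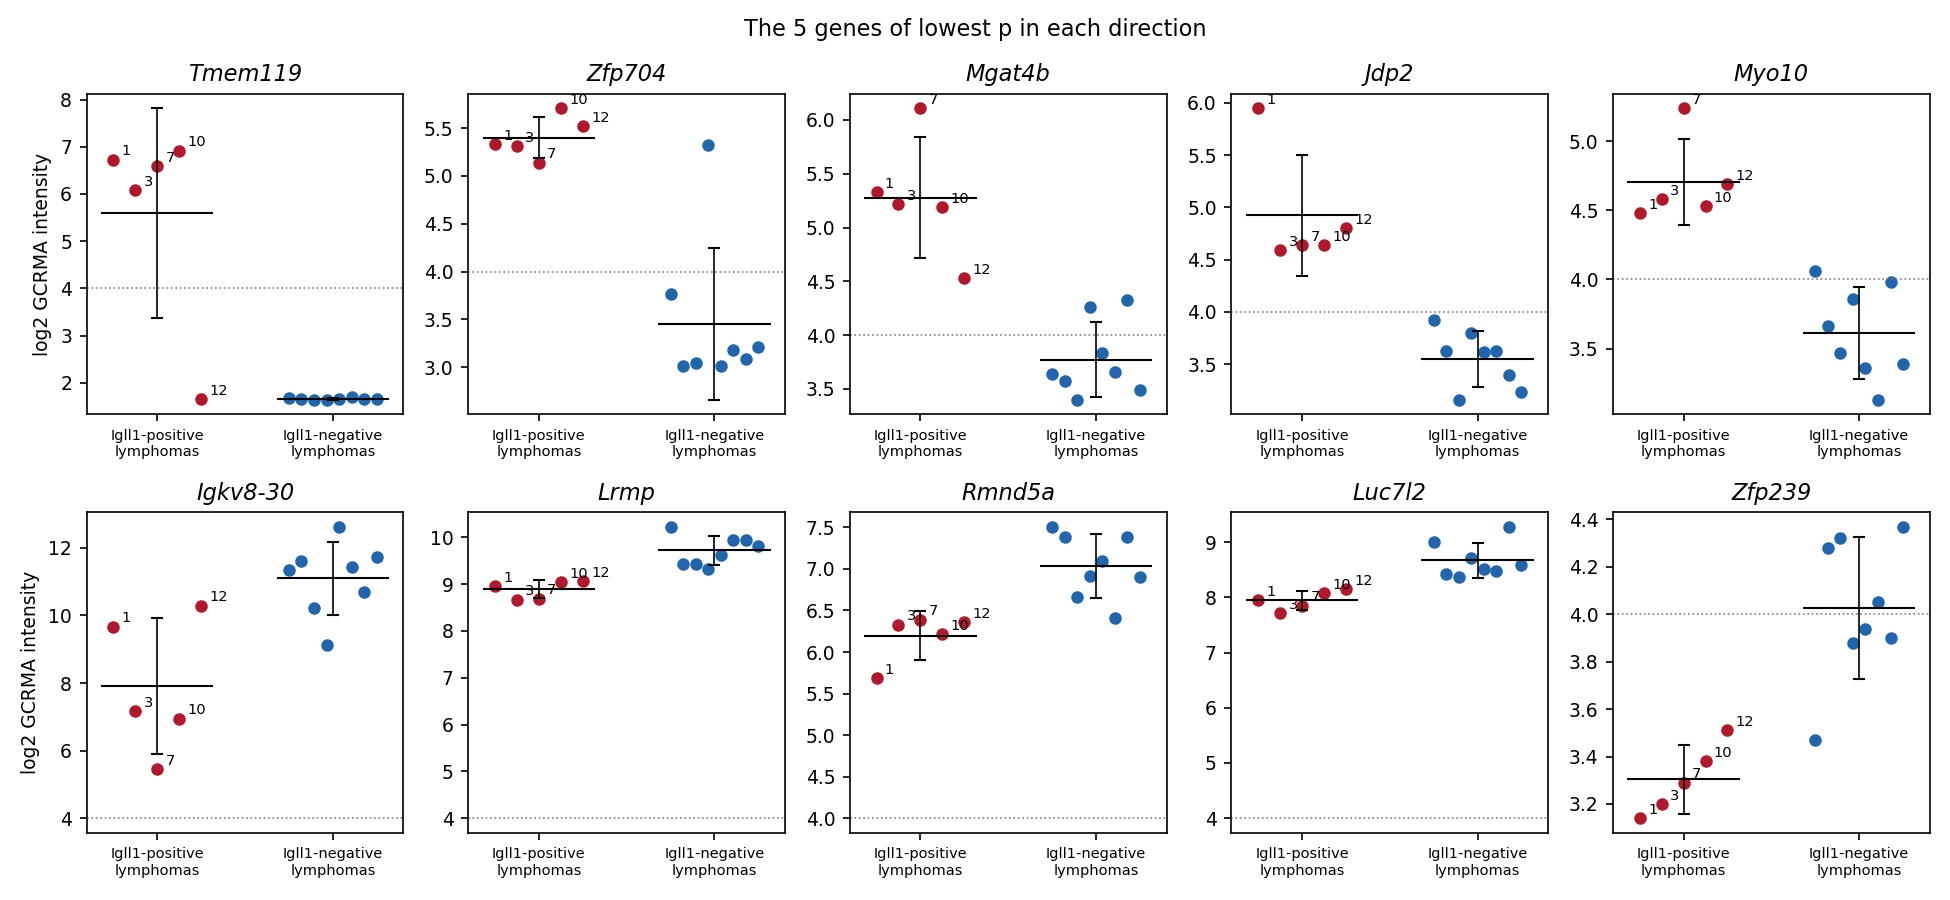
Log2 intensity (vertical axes) of the 5 genes with the lowest p on the higher side and the 5 on the lower side, in the 5 Igll1-positive (left) and 8 Igll1-negative lymphomas (right of each panel); dots are arrays and bars the mean and SD. Mgat4b, Jdp2, Myo10, Lrmp, Luc7l2 and Rmnd5a do not overlap, while Tmem119 has 1 positive lymphoma at the floor and Zfp704 has 1 negative lymphoma at 5.32.

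The genes whose log2 values most resembled those of Igll1 over the 13 lymphomas were Tnfrsf1a (Pearson r = 0.887), Jdp2 (0.885), Rab5if (0.874), Enpep (0.868) and Sqstm1 (0.863). These correlations are descriptions over 13 arrays that share 1 platform and normalisation, and in all 5 genes lymphoma 1 had the highest value of the positive lymphomas. Tnfrsf1a, the tumour necrosis factor receptor, varied little, from 4.68 to 5.04 in the positive and 4.60 to 4.71 in the negative lymphomas. Enpep, which encodes aminopeptidase A, the BP-1 antigen of mouse pre-B and immature B cells, varied most. It had log2 values of 8.08, 5.16, 4.43, 6.24 and 2.87 in Igll1-positive lymphomas 1, 3, 7, 10 and 12, and 2.72 to 5.04 in the negative ones, with lymphoma 6 highest. The order of the positive lymphomas by Enpep was 1, 10, 3, 7 and 12, close to that by Igll1. Enpep was named for its correlation with Igll1, so that choice favoured a like order, which lends no support. Enpep differed by 1.95 (adjusted p = 0.404) and overlapped between the sets. Above log2 4 in 4 of 5 positive and 2 of 8 negative lymphomas, it entered the test through the positive set, so the filter favoured a difference.

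No tested gene of V(D)J recombination passed, and the group as such was not tested. Of 14 listed genes 7 were tested, 4 were too dim, among them Dntt, the terminal transferase of pro-B cells, and 3 had no probe set with 1 symbol. 0 of 7 passed, and 4 of 7 had differences above 0, against 47.4% of all genes. The median was 0.16, against -0.015 over all genes. Rag1, a subunit of the recombinase, had log2 values of 3.10, 8.65, 8.97, 8.09 and 4.40 in Igll1-positive lymphomas 1, 3, 7, 10 and 12. In the Igll1-negative set it lay between 3.09 and 8.68 with a median of 3.57, lymphoma 6 being highest and lymphoma 2 next at 5.93. Rag1 was therefore high in 3 positive lymphomas and 1 negative one, and at the floor in lymphoma 1, which had the most Igll1. The difference was 2.25 (SE 1.14, adjusted p = 0.541). With 4 of 5 positive and 2 of 8 negative lymphomas above log2 4, Rag1 entered the test through the positive set, so the filter favoured a difference. Rag1 averaged 6.08 in premalignant and 3.56 in wild type B cells.

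Rag2, the partner of Rag1, followed it, with 3.29, 5.06, 4.66, 5.48 and 3.23 in the positive lymphomas. In the negative set it lay between 3.11 and 3.40 except for lymphoma 6, at 6.01 (difference 0.76, adjusted p = 0.636). The same 4 lymphomas, 3 of them positive, were thus above log2 4 for Rag2 and above 8 for Rag1. For Rag2 these were the fewest that the filter admits, so it entered the test mainly through the positive set. Xrcc6, the Ku70 subunit of the end-joining machinery, had 9.71, 6.83, 6.31, 7.83 and 8.88 in the positive lymphomas, against 6.47 to 7.89 in the negative ones (difference 0.91, adjusted p = 0.55). It was highest in lymphomas 1 and 12, the 2 positive lymphomas with Rag2 under log2 4. Its partner Xrcc5, Ku80, averaged 5.03 in positive and 5.38 in negative lymphomas. Prkdc, the kinase that Ku recruits, averaged 5.13 in positive and 5.62 in negative lymphomas. Polm, a polymerase of end joining, was at 2.67 in lymphoma 1 and at 5.22 to 5.90 in the other positive lymphomas, against 3.60 to 7.00 in the negative ones. Hmgb2, a cofactor of RAG cutting, averaged 10.61 in positive and 10.70 in negative lymphomas (adjusted p = 0.884).

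Markers of pro-B and pre-B cells other than the surrogate light chain were mixed. Of 23 listed genes 13 were tested and 9 were too dim, Kit, Lef1 and Erg among them, and 1 had no probe set with 1 symbol. 0 of 13 passed, and 8 of 13 had differences above 0, against 47.4% of all genes, with a median of 0.12. At an unadjusted p under 0.05, 1 of 13 was higher, Sox4, against 5.29% of all genes. At the same level 3 of 13 were lower, Ly6d, Cd24a and Gfi1, against 4.48% of all genes. Il7r, the interleukin-7 receptor, had log2 values of 9.15, 7.09, 5.21, 7.72 and 3.69 in Igll1-positive lymphomas 1, 3, 7, 10 and 12. The Igll1-negative lymphomas lay between 3.04 and 7.49 with a median of 4.11, lymphomas 6 and 13 standing out at 7.49 and 7.48. Its difference was 1.76 (SE 0.96, adjusted p = 0.564), and another Il7r probe set gave 1.46. Il7r averaged 3.87 in premalignant and 3.74 in wild type B cells, so that the receptor was above log2 4 in 4 of 5 positive and 4 of 8 negative lymphomas while both groups of non-malignant cells averaged less.

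Sox4, a transcription factor needed by pro-B cells, averaged 8.72 ± 0.58 in Igll1-positive and 7.33 ± 1.28 in Igll1-negative lymphomas (SD, n = 5 and 8), with negative lymphoma 6 at 9.12 (difference 1.39, adjusted p = 0.452). Myb, which early B cells require, averaged 9.78 and 9.24 in the positive and negative sets, and 8.13 and 5.94 in premalignant and wild type cells. Cd93, the AA4.1 antigen of immature B cells, averaged 9.49 in the positive and 8.52 in the negative set (adjusted p = 0.62). Ly6d, a surface protein that marks progenitors committed to the B lineage and stays on B cells, gave the widest gap of the list. It was under log2 4 in all 5 positive lymphomas, at 2.78 to 3.77, and above it in 6 of 8 negative ones, up to 8.47, the exceptions being lymphomas 5 and 6, so it entered the test through the negative set alone. The difference was -2.84 (SE 0.84, adjusted p = 0.318), at least 4.18-fold lower. Ly6d averaged 10.88 in premalignant and 11.57 in wild type B cells, above every lymphoma.

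Among the remaining members, Cd24a, the heat-stable antigen, differed by -0.42 (adjusted p = 0.41), and Gfi1, a repressor of early haematopoiesis, by -0.86 (adjusted p = 0.453). Ebf1, the factor whose motif was searched above, averaged 7.54 in Igll1-positive and 7.87 in Igll1-negative lymphomas (adjusted p = 0.632). The scaffold protein Akap12 differed by -0.49, the Notch target Hes1 by 0.36, the secreted protein Egfl7 by 0.26, the chromatin remodeller Smarca4 by 0.12 and the receptor Flt3 by 0.04, with adjusted p of 0.564 for Egfl7 and above that for the others.

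**Figure D4:**
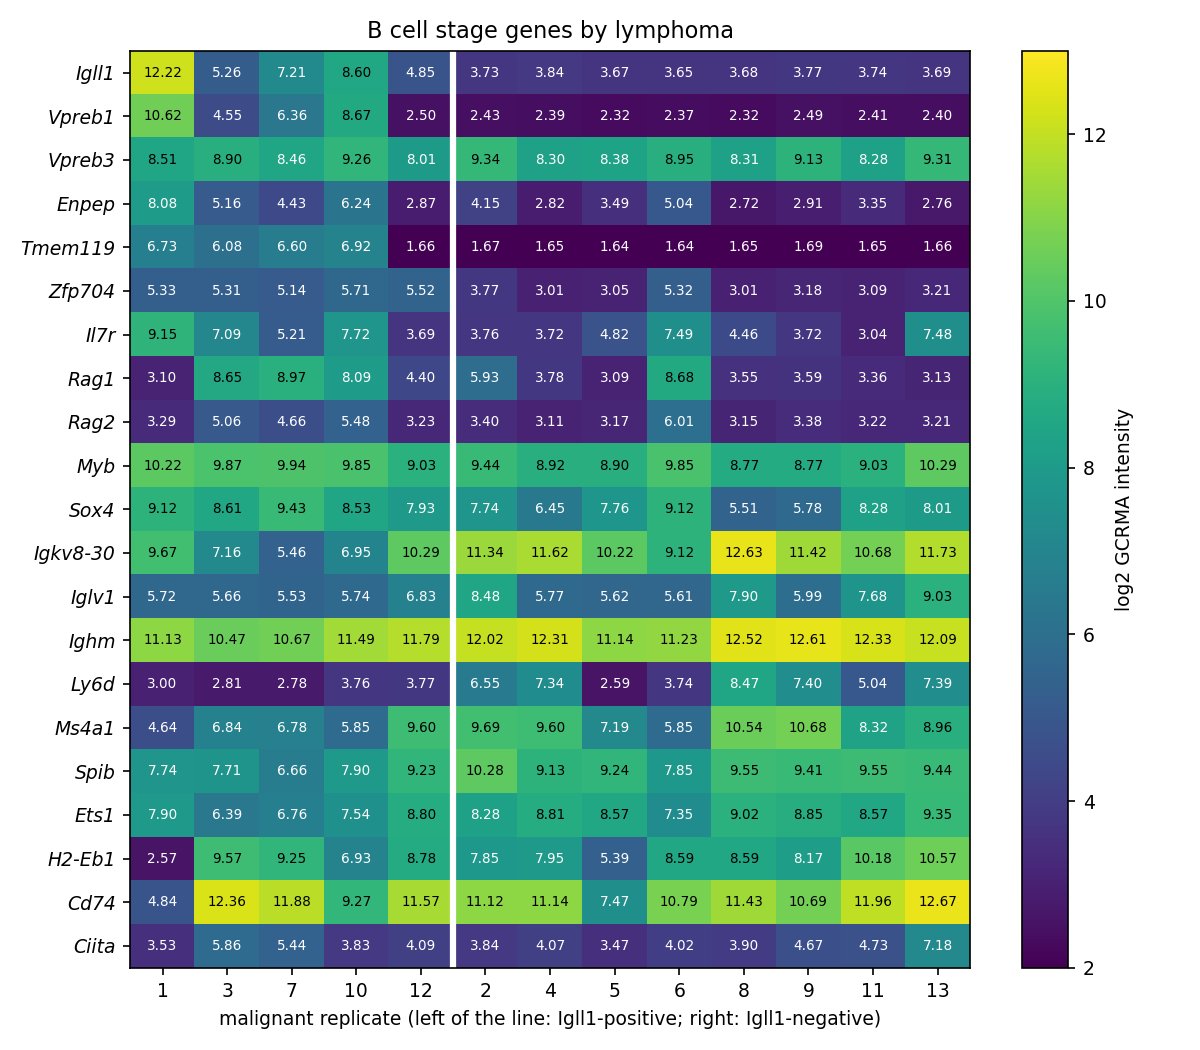
Heat map of log2 intensity for 21 genes (rows), selected without a fixed rule, in the 13 lymphomas (columns). Of the tested V(D)J, pro-B and pre-B genes not shown, Gfi1, Cd24a, Akap12, Ebf1, Xrcc5, Prkdc and Hmgb2 averaged lower in the positive set. Xrcc6, Polm, Cd93, Hes1, Egfl7, Smarca4 and Flt3, also left out, averaged higher. The 5 Igll1-positive lymphomas stand left of the 8 Igll1-negative ones, and each cell prints its value. Tmem119 and Zfp704 are shown for their low p in this comparison and are not given as B lineage stage genes. Rag1 is at 8.65, 8.97 and 8.09 in positive lymphomas 3, 7 and 10 and at 8.68 in negative lymphoma 6, and Cd74 is at 4.84 in positive lymphoma 1.

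Light chain and heavy chain transcripts averaged lower in the Igll1-positive lymphomas, without passing the test. Igkv8-30 had log2 values of 9.67, 7.16, 5.46, 6.95 and 10.29 in positive lymphomas 1, 3, 7, 10 and 12. The negative lymphomas lay between 9.12 and 12.63 with a median of 11.38, and lymphoma 6 was the lowest of them. The difference was -3.19 (SE 0.75, adjusted p = 0.223), 9.12-fold lower. Premalignant cells averaged 13.47 and wild type cells 13.92. This probe set can bind transcripts of related kappa genes, so the value stands for kappa light chain signal of several genes. A probe set labelled Igk had 5.68, 4.24, 3.19, 3.85 and 6.02 in the positive lymphomas, against 4.71 to 6.35 in the negative ones. It was dim, with lymphomas 7 and 10 under log2 4, so no order among lymphomas 3, 7 and 10 is read from it. Kappa signal was thus lowest in lymphomas 3, 7 and 10, the positive ones with Rag1 and Rag2, and higher in lymphomas 1 and 12.

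Of 13 listed immunoglobulin genes 3 were tested and 0 passed. Differences were above 0 in 0 of 3, against 47.4% of all genes, with a median of -0.92. The heavy chain gene Igha hardly differed, at -0.08 (limma adjusted p = 0.975). Ighm, the μ heavy chain, averaged 11.11 ± 0.55 in Igll1-positive and 12.03 ± 0.56 in Igll1-negative lymphomas (SD, n = 5 and 8), a difference of -0.92 (adjusted p = 0.359), and a second bright Ighm probe set gave -0.75. Ighm averaged 13.04 in premalignant and 13.69 in wild type cells. Iglv1, a lambda variable gene, lay between 5.53 and 5.74 in 4 positive lymphomas and at 6.83 in lymphoma 12, against 5.61 to 9.03 in the negative ones (adjusted p = 0.559). Negative lymphomas 4, 5, 6 and 9 were about as low, at 5.77, 5.62, 5.61 and 5.99. Negative lymphomas 2, 8, 11 and 13 were at 8.48, 7.9, 7.68 and 9.03.

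Among factors and surface proteins of later B cells, Spib and Ms4a1 had the wider gaps. Spib, an Ets family factor of B cells, averaged 7.85 ± 0.91 in Igll1-positive and 9.31 ± 0.68 in Igll1-negative lymphomas (SD, n = 5 and 8), a difference of -1.46 (SE 0.40, adjusted p = 0.282). Positive lymphoma 12, at 9.23, lay within the negative range, and negative lymphoma 6, at 7.85, within the positive one. Ms4a1, the CD20 antigen, had 4.64, 6.84, 6.78, 5.85 and 9.60 in the positive lymphomas, against 5.85 to 10.68 in the negative ones (difference -2.11, adjusted p = 0.464). Ets1, another Ets factor, averaged 7.48 and 8.60 (adjusted p = 0.392), and Ikzf1, which encodes Ikaros, 5.62 and 5.05 (adjusted p = 0.478), in the positive and negative sets. As groups, 0 of 23 B lineage transcription factors passed, with a median of -0.01, and 0 of 15 genes of mature B cells, with a median of -0.05. In 23 genes of pre-B and B cell receptor signalling 0 passed, with a median of 0.02. Of 16 genes of interleukin-7 and STAT signalling 0 passed and 13 had differences above 0, against 47.4% of all genes, with a median of 0.25. In that list Csf2rb, the shared chain of the interleukin-3 family of receptors, averaged 5.14 in the positive and 3.42 in the negative set (difference 1.71, adjusted p = 0.297). Negative lymphoma 6 was at 5.47. Csf2rb was above log2 4 in 5 of 5 positive and 2 of 8 negative lymphomas. It entered the test through the positive set, so the filter favoured a difference. Macrophages also carry Csf2rb, and the summed macrophage markers given below were highest in positive lymphomas 3 and 7 and negative lymphoma 6 of their sets; their part in the Csf2rb values was not tested.

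Class II MHC genes, which B cells use to present antigen, had values that rested on single lymphomas. Of 10 listed genes 8 were tested, 0 passed and 1 had a difference above 0, against 47.4% of all genes, with a median of -0.69. Cd74, the invariant chain, had log2 values of 4.84, 12.36, 11.88, 9.27 and 11.57 in Igll1-positive lymphomas 1, 3, 7, 10 and 12, against 7.47 to 12.67 in the negative ones, lymphoma 5 being lowest. H2-Eb1 had 2.57, 9.57, 9.25, 6.93 and 8.78 in the positive lymphomas and 5.39 to 10.57 in the negative ones. The lymphoma with the most Igll1 thus had the least class II signal of all 13. Without lymphoma 1 the sign turned, to 0.36 for Cd74, 0.48 for H2-Aa and 0.22 for H2-Eb1, in place of -0.93, -0.73 and -0.99. Ciita, the class II transactivator, averaged 4.55 in positive and 4.49 in negative lymphomas (adjusted p = 0.976), with a sign that also turned under other settings.

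Myc and the genes of growth differed little in level between the sets. Myc averaged 9.59 ± 0.30 in Igll1-positive and 9.58 ± 0.74 in Igll1-negative lymphomas (SD, n = 5 and 8), a difference of 0.01 (SE 0.32, adjusted p = 0.993) whose sign turned under other settings, and 9.97 and 7.04 in premalignant and wild type cells. Mdm2, the p53 antagonist, averaged 6.06 and 5.76 in the positive and negative sets (adjusted p = 0.702), with lymphoma 1 highest at 7.08. Cdkn2a and Cdkn1a were too dim to test. The median difference was -0.01 over 35 genes of ribosome biogenesis, -0.05 over 8 of the Myc network, -0.11 over 27 of mitosis and 0.03 over 13 p53 targets, with 0 passing in each. Of 10 genes in a list of D-type cyclins, their kinases, CDK inhibitors and the Rb family 0 passed, with a median of -0.26. At an unadjusted limma p under 0.05, 3 were lower, against 4.48% of all genes. They were Rb1 at -0.60, Cdkn2d at -0.68 and Cdkn1b at -0.37.

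Markers of macrophages were higher in value in the Igll1-positive lymphomas. Of 16 listed markers 12 were tested, with Itgam, Cd14 and Marco too dim, and 0 passed. Differences were above 0 in 11 of 12, against 47.4% of all genes, with a median of 0.60. At an unadjusted limma p under 0.05, 8 of 12 were higher, against 5.29% of all genes. Their summed linear intensity was 5059.7, 6356.2, 7362.0, 4875.0 and 3242.1 in Igll1-positive lymphomas 1, 3, 7, 10 and 12. It ran from 2269.4 to 5155.3 with a median of 3107.7 in the Igll1-negative lymphomas, from 1204.0 to 3956.5 in premalignant and from 1851.8 to 4761.0 in wild type cells. The sums were highest in lymphomas 3 and 7, and the highest negative one was lymphoma 6. Csf1r, the receptor of macrophage growth factor, averaged 7.89 and 6.51 in the positive and negative sets (difference 1.38, adjusted p = 0.238), and 8.57 and 9.10 in premalignant and wild type cells. Fcgr3, an Fc receptor, differed by 1.35 (adjusted p = 0.238), the complement gene C1qa by 1.15 (adjusted p = 0.271) and the lysozyme Lyz2 by 1.09 (adjusted p = 0.482).

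**Figure D5:**
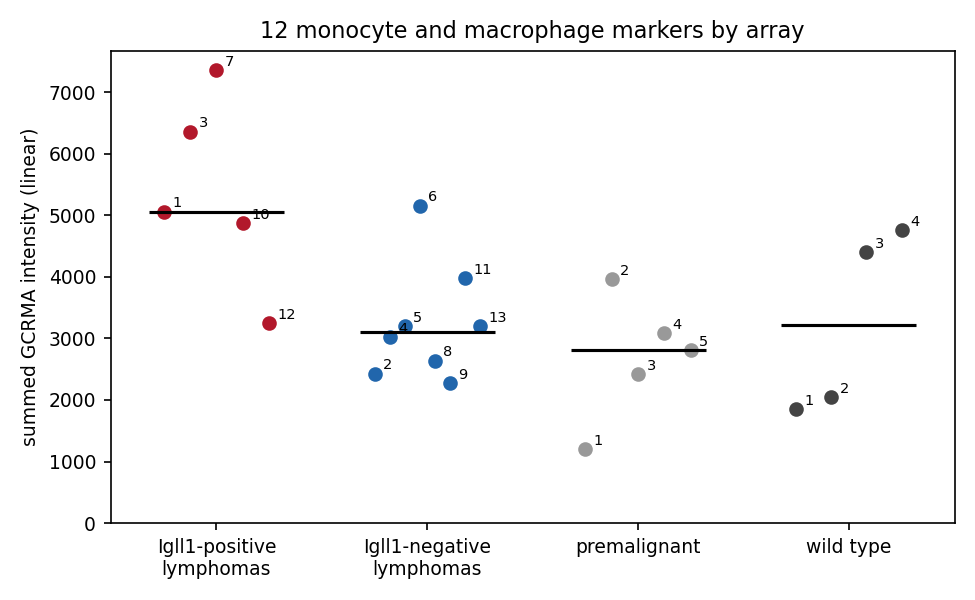
Summed linear intensity (vertical axis) of the 12 tested macrophage markers on each array, by group; dots are arrays and lines medians. The Igll1-positive lymphomas run from 3242.1 to 7362.0 and the Igll1-negative ones from 2269.4 to 5155.3.

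Stromal and endothelial markers leaned the same way, with 0 of 12 passing and a median of 0.49. Differences above 0 were found in 10 of 12, against 47.4% of all genes. Their summed intensity ran from 2457.5 to 5380.6 in Igll1-positive and from 1408.7 to 4733.0 in Igll1-negative lymphomas, with Cxcl12, a stromal chemokine, at 1.62 (adjusted p = 0.386) and Acta2, smooth muscle actin, at 1.20 (adjusted p = 0.276). The 5 neutrophil markers tested had a median of 0.63 and sums of 147.3 to 5915.8 in positive and 49.6 to 3985.6 in negative lymphomas, with Mpo and Elane too dim. Their median sum went the other way, at 225.8 in positive and 421.9 in negative lymphomas. Salivary gland transcripts had a median of -0.19 over 5 genes and sums of 30.9 to 4972.1 and 29.9 to 13033.7. The median sums were 985.0 in positive and 627.1 in negative lymphomas. Of the T cell markers Cd4 alone was tested (1.12, adjusted p = 0.676), Cd3e and Cd8a being too dim. Natural killer markers were all too dim where a probe set had 1 symbol. In these bulk samples more cells of a type and more RNA per cell cannot be told apart. The part of other cell types in the differences given above was not tested.

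Over the 6065 tested genes, the Igll1-positive lymphomas did not all lie nearest to each other. The mean correlation of log2 values over genes was 0.932 in 10 pairs of positive lymphomas, 0.926 in 28 pairs of negative ones and 0.922 in 40 pairs across the sets; genes are not independent and pairs share arrays, so no test is given. Lymphomas 3 and 7 were the most alike of all pairs (r = 0.983), and lymphoma 10 was nearest to lymphoma 3 (r = 0.961). Lymphoma 1 was nearest to negative lymphoma 5 (r = 0.929) and lymphoma 12 to negative lymphoma 2 (r = 0.956), while negative lymphoma 6 was nearest to positive lymphoma 3 (r = 0.962).

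No measure of array quality passed after adjustment in the split by Igll1. In the split by Vpreb1, which gave 23 calls, the Gapdh difference of -0.30 and the difference of 0.43 percentage points in probe sets above log2 4 did pass (exact permutation, adjusted p = 0.042 each), and their part in those calls was not tested. The 3′ minus 5′ log2 signal of beta-actin was 1.84 ± 0.448 in Igll1-positive and 1.98 ± 0.343 in Igll1-negative lymphomas (SD, n = 5 and 8), with an adjusted p of 0.533 by an exact permutation test (two-sided). Premalignant and wild type arrays averaged 0.70 and 0.77. For Gapdh the values were 0.87 ± 0.347 and 0.98 ± 0.186 (SD, n = 5 and 8; exact permutation, adjusted p = 0.533). The share of probe sets above log2 4 was 43.05% ± 0.266 in positive and 42.69% ± 0.286 in negative lymphomas (SD, n = 5 and 8; exact permutation p = 0.0373, adjusted over 3 measures 0.112). The number of arrays limits the precision of every value here.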

How the data were processed

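The deposited values are intensities per probe set, for which the submitters' processing notes name GCRMA as the authors' tool, without a version. GCRMA removes background modelled on the probes' base composition, which leaves dim probe sets near a common floor, and normalises arrays to each other. The values were linear, and log2 was taken here. Of 22690 probe sets on 22 arrays, 20380 had 1 gene symbol, 691 several, 1555 none and 64 were controls. The platform's annotation can be old. Probe sets above log2 4 on at least 4 of the 13 lymphoma arrays were kept (10023), and 6065 genes were tested, each by the probe set brightest on average on the 22 arrays. Igll1 and Vpreb1 were described without a test. Sets were compared by two-sided moderated tests of limma 3.58.1 (eBayes after lmFit, R 4.3.3), with Benjamini-Hochberg adjustment over all genes. Exact permutation tests used SciPy 1.17.1. A set mean under log2 4 was taken as 4 for folds, which are then written as at least N-fold. On simulated data 200 of 6065 genes were changed. Of these, 75% of genes changed 2-fold and 94% of those changed 4-fold were recovered, and 6.1% of calls were false. The simulated noise was normal, independent between genes and equal in both sets, and every positive array was shifted alike. Real lymphomas that stand apart singly break these settings, so the shares do not give the power of the comparison above.

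The members and the 34 gene lists were chosen with earlier results of these data known. Genes were named by rule: tested members of the surrogate light chain, V(D)J and pro-B and pre-B lists, the 5 lowest p in each direction, the 5 genes most correlated with Igll1, Myc, Mdm2, Cdkn2a and Cdkn1a. All other genes named were chosen after their values were seen. Lists are described by counts and medians. Alternatives changed the filter, floor, probe set rule, normalisation, arrays in the fit, weights, a beta-actin covariate, the moderation and the split (Igll1 above log2 6, or Vpreb1 above 4), and left out each lymphoma in turn. Replicates of premalignant and wild type cells are not said to come from separate mice, and these groups were not tested.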

Additional observations from a re-analysis of the deposited data

Results flagged for a closer look

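In 16 of 120 sets of lymphoma values tested, 1 lymphoma lay far from all others of its set by Dixon's criterion, on the log2 scale. Chance flags about 1 in 20 such sets, and values of 1 lymphoma are not independent of each other. Negative lymphoma 6 stood apart in 4 genes: Rag2 at 6.01 (others 3.11 to 3.40), Zfp704 at 5.32 (3.01 to 3.77), Spib at 7.85 (9.13 to 10.28) and Lyz2 at 11.33 (8.68 to 9.49). Positive lymphoma 1 stood apart in another 4: Prkdc at 4.15 (others 5.19 to 5.60), Polm at 2.67 (5.22 to 5.90), Jdp2 at 5.95 (4.59 to 4.80) and Rmnd5a at 5.69 (6.22 to 6.39). Positive lymphoma 12 did so in 3: Tmem119 at 1.66 (others 6.08 to 6.92), Iglv1 at 6.83 (5.53 to 5.74) and Ikzf1 at 5.11 (5.67 to 5.82). Negative lymphoma 5 was low for Cd74, at 7.47 (others 10.69 to 12.67), and for Flt3, at 3.97 (4.23 to 4.31). Single values were Myo10 at 5.24 in positive lymphoma 7 (others 4.48 to 4.69), Hmgb2 at 9.86 in negative lymphoma 11 (10.59 to 11.18) and Ciita at 7.18 in negative lymphoma 13 (3.47 to 4.73).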

How the results depend on the processing

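The number of genes called, 0 higher and 0 lower as reported, became 8 and 0 with the mean of a gene's probe sets, 7 and 0 with trended robust moderation, 14 and 0 with arrays centred on the hybridisation spikes (which moved the median of all genes to 0.40), 18 and 8 in 1 fit over 22 arrays, 148 and 74 with array weights, and 19 and 4 with lymphomas split by Vpreb1. Leaving out 1 lymphoma gave 0 to 19 higher and 0 to 4 lower: 19 and 4 without negative lymphoma 6, 4 higher without positive lymphoma 12, 2 without positive lymphoma 1 and 1 without negative lymphoma 5. It stayed at 0 with the other filters, the floor, median centring, quantile normalisation, the actin covariate and Igll1 above log2 6 (3 against 10 lymphomas). Members of gene lists called, 0 as reported, were 1 in 1 fit over 22 arrays, 11 with array weights, 1 in the Vpreb1 split and 0 to 1 without single lymphomas (1 without lymphoma 6). Markers of other cells called were 2 with spike centring, 1 in 1 fit over 22 arrays, 7 with array weights and 0 to 1 without single lymphomas (1 without lymphoma 6). In the Vpreb1 split the Gapdh difference was -0.30 and that of the share of probe sets above log2 4 was 0.43 (exact permutation, adjusted p = 0.042 each); without single lymphomas the quality differences ran from -0.25 to -0.04 for Gapdh, -0.30 to 0 for actin and 0.28 to 0.44 for the share.

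Of 1430 values of the 55 named genes tested under 26 alternatives, 1328 kept sign and side of the threshold, 67 passed and 35 changed sign; no named gene passed as reported, so none could lose a call. Sign changes were Vpreb3 (0.29 with spike centring, 0.09 with array weights, 0.05 with Igll1 above 6, 0.11 in the Vpreb1 split), Xrcc5 (0.05), Hmgb2 (0.32) and Ebf1 (0.08) with spike centring, Polm (-0.27) with Igll1 above 6, Flt3 (-0.01) in the Vpreb1 split, Smarca4 (-0.02), Myc (-0.08), H2-Aa (0.51), H2-Eb1 (0.28) and Cd74 (0.29) with array weights, Myc (-0.0025) and Ciita (-0.18) with the actin covariate, and Ciita (-0.32) with Igll1 above 6. Without single lymphomas values ran from -1.52 to 0.36 for Cd74, -1.26 to 0.48 for H2-Aa, -1.53 to 0.22 for H2-Eb1, -0.26 to 0.45 for Ciita, -0.12 to 0.18 for Myc, -0.07 to 0.73 for Polm and -0.28 to 0.03 for Vpreb3. The cause was not tested. No paired analysis was possible because both sets are parts of 1 labelled group and share no replicate number. Probe sets near the array floor carry no order.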
